A study of Mus musculus with 12 samples.

Results

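Axon injury and regeneration genes are genes that neurons switch on when their axon is cut. The set consisted of 8 genes, chosen by symbol, without a threshold on their values, out of 53707 genes in the table: Sprr1a, Gap43, Atf3, Sox11, Klf6, Ecel1, Gadd45a and Gal. Each symbol belonged to 1 row, and all 8 rows passed the filter on low counts. The tissue was the neural retina of wild-type C57BL/6J mice at 28 days of age, dissected free of the pigment epithelium and kept for 48 hours in Neurobasal-A medium with B27 and N2 supplements. One group received 5 mM glucose and the other 25 mM glucose, and nothing else was stated to differ between them. Each group held 3 biological replicates of 2 technical replicates, giving 12 libraries, and each first technical replicate was labelled batch 1 and each second one batch 2. How many retinas or animals went into a replicate is not given in the sources used here, so the p-values measure the spread between these samples.

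Retinal ganglion cells are the output neurons of the retina, and their axons leave the eye in the optic nerve, so removing a retina from the eye severs them. A severed axon signals back to the cell body through the kinase DLK (Map3k12) and the JNK kinases, which act on transcription factors such as Jun. A shared set of genes is then transcribed: regulators (Atf3, Sox11, Klf6), proteins of the growing axon (Gap43, Sprr1a), an enzyme-like membrane protein (Ecel1), a stress protein (Gadd45a) and a neuropeptide (Gal). In peripheral neurons the set accompanies regrowth of the axon, while most injured ganglion cells fail to regrow and die. No retina taken straight from the animal was analysed here, so the levels below are those reached in culture and not a change from the intact eye. Several of these genes are not private to ganglion cells. Klf6, Atf3 and Gadd45a respond to stress in many cell types, glia and vessels included.

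The promoters of Sprr1a, the gene with the largest fold difference, and of Atf3, a regulator used as a mark of injured neurons, are shown. Factors of the AP-1 and ATF families bind short letter patterns of the kind marked in them. RefSeq (GRCm38.p6) gave promoter sequence for 7 of the 8 genes, Gap43 being the one not matched. Both sequences are on the minus strand, chr3:92485882-92486131 for Sprr1a and chr1:191183334-191183583 for Atf3, and cover the 250 bases before the RefSeq transcription start. Capitals mark the matches to 4 patterns searched: the AP-1 site TGANTCA, the ATF/CRE site TGACGTNA, the ATF4 composite site TGATGNAA and, on the plus strand only, the TATA box TATAAA.
Sprr1a: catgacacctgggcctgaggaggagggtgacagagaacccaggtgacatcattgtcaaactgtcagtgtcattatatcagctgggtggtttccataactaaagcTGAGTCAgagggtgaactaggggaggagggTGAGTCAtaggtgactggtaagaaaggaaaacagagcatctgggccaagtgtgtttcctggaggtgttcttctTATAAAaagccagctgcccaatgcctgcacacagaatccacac
Atf3: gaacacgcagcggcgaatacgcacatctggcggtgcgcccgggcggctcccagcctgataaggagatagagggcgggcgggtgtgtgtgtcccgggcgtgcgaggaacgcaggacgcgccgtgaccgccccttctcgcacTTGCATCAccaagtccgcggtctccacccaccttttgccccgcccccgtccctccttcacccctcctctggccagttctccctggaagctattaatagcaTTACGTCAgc

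The Sprr1a promoter held the AP-1 letters in 2 places, beginning 146 and 116 bases before the start, and a TATA box beginning 43 bases before it. The Atf3 promoter held an ATF/CRE match beginning 10 bases before the start and an ATF4 composite match beginning 110 bases before it, both read on the opposite strand. Among all 32851 promoters of the same length, 6.75% held the AP-1 letters on either strand, 2.52% the ATF/CRE letters, 3.45% the ATF4 composite letters and 7.59% the TATA box. In the set each pattern was present in 1 of 7 promoters. These are matches of letters, and no binding was measured here.

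All 8 genes were detected in every library. Levels were compared between genes as TPM, a unit that corrects for library size and transcript length, and are given as the mean over the 6 replicates. Klf6 was the most abundant at 205 TPM, higher than 96.7% of the 20301 genes ranked. Gap43 (75.1 TPM), Atf3 (72.1 TPM) and Gadd45a (72.1 TPM) followed, and their replicate ranges overlapped, at 41.8 to 118 TPM, 56.3 to 89.5 TPM and 65.0 to 91.8 TPM. The lowest Klf6 replicate and the highest Gap43 replicate met at 118 TPM. Sprr1a (36.1 TPM), Ecel1 (24.9 TPM) and Gal (16.2 TPM) came next, again with overlapping ranges of 13.0 to 77.5 TPM, 12.2 to 34.9 TPM and 7.05 to 25.9 TPM. The order of the means among these genes differed between the glucose concentrations, and this was not tested. At 5 mM Atf3 (80.1 ± 16.0 TPM) stood above Gadd45a (69.4 ± 4.99 TPM) and Gap43 (56.3 ± 22.1 TPM), and Ecel1 (26.6 ± 12.5 TPM) above Sprr1a (18.2 ± 6.78 TPM). At 25 mM Gap43 (93.9 ± 22.4 TPM) stood above Gadd45a (74.9 ± 14.7 TPM) and Atf3 (64.2 ± 10.3 TPM), and Sprr1a (54.0 ± 21.2 TPM) above Ecel1 (23.2 ± 10.2 TPM) and Gal (22.3 ± 3.7 TPM) (SD, n = 3 each). Sox11, whose single annotated transcript is 8311 bases long, was lowest at 3.72 TPM, higher than 35.8% of genes, and its range of 2.26 to 5.17 TPM lay below that of every other gene of the set.

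For scale, the ganglion cell genes Slc17a6 (22.5 TPM), Thy1 (38.6 TPM) and Nefl (81.5 TPM) lay in the same span as the injury genes. Sprr1a, named for small proline-rich proteins of the skin and little used by uninjured neurons, averaged 18.2 ± 6.78 TPM at 5 mM and 54.0 ± 21.2 TPM at 25 mM, beside 40.1 ± 8.01 and 37.1 ± 11 TPM for the ganglion cell surface protein Thy1 (SD, n = 3 each). Its relatives in the annotation were at or near 0: Sprr1b, Sprr2a1, Sprr2b, Sprr2d, Sprr3 and Sprr4 averaged at most 0.0673 CPM (counts scaled to library size, without length) in either group and were too low to test.

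**Figure D1:**
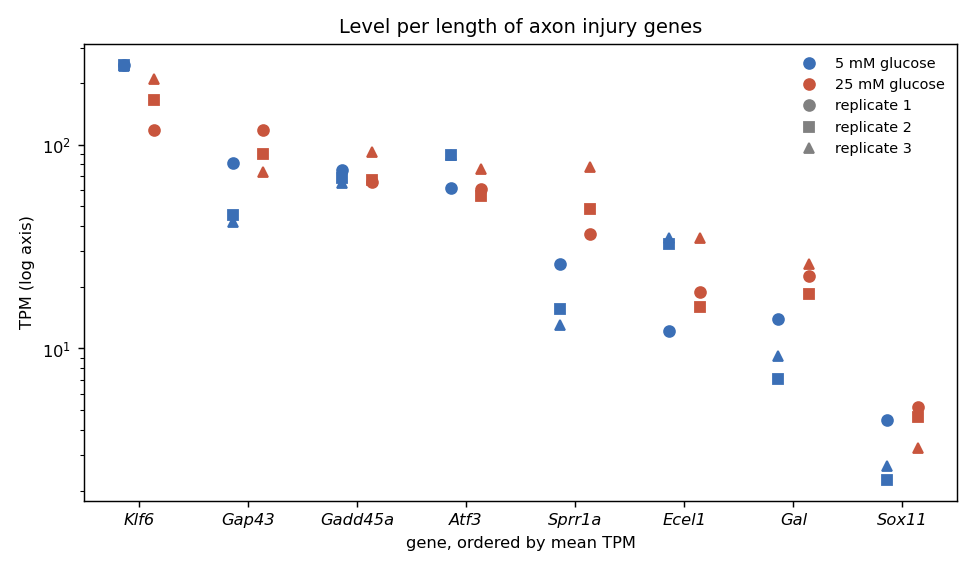
TPM (log axis) of the 8 genes in each of the 6 replicates, ordered by mean level, with blue points for 5 mM and red points for 25 mM glucose and the marker shape for the replicate number. Klf6 stands at the top and Sox11 alone at the bottom, while Gap43, Gadd45a and Atf3 share 1 range.

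Between the 2 glucose concentrations, none of the 8 genes passed the adjusted threshold. The comparison used the quasi-likelihood test of edgeR on 21061 genes with Benjamini-Hochberg adjustment, giving a false discovery rate (FDR). At an FDR under 0.05, 417 genes (1.98%) were called and 0 of the 8. At the stricter pair of thresholds, an FDR below 0.01 with more than a 2-fold difference, 0 genes (0%) were called and 0 of the 8. At an unadjusted p under 0.05, 6052 genes (28.7%) stood out, and 3 of the 8 did (Sprr1a, Klf6 and Gal), a share of 37.5% close to the background. The replicates of the 2 groups did not overlap for 6691 genes (31.8%) and for the same 3 of the 8. The median log2 fold change of the set was 0.18, against -0.01 over all genes, and its median absolute size was 0.53 against 0.45. An exact permutation test of 3 against 3 cannot give a two-sided p below 0.1. The differences had no common direction, as 5 of 8 log2 fold changes were above 0.

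Over the same 12 libraries, 3 other settings called 1 or 2 of the 8 at an FDR under 0.05. DESeq2 called Sprr1a and Gal, beside 16.6% of all genes, and only Sprr1a at the stricter pair of thresholds, beside 6.59%. The 12 libraries taken as separate samples with a batch term gave Sprr1a alone, beside 15.6%. That setting treats the 2 technical replicates of a biological replicate as independent, which they are not. The edgeR test without the filter on low counts gave Sprr1a alone, beside 5.63%.

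Sprr1a (ENSMUSG00000050359, chr3:92483952-92485895 of GRCm38, minus strand) encodes a small protein of the cell envelope that promotes neurite growth when it is made in injured neurons. Its 3 replicates at 5 mM glucose read 11.6, 6.4 and 5.64 CPM, and those at 25 mM read 13.4, 20.8 and 30.2 CPM. Every replicate at 25 mM was above every replicate at 5 mM, though the lowest at 25 mM lay close to the highest at 5 mM. Single libraries did overlap, at 5.43 to 16.3 CPM at 5 mM and 6.57 to 35.7 CPM at 25 mM. The means were 7.87 ± 3.22 and 21.5 ± 8.43 CPM (SD, n = 3 each), a 2.73-fold difference. The log2 fold change was 1.45 (SE 0.38, 95% interval 0.57 to 2.33), with an FDR of 0.0732 by the quasi-likelihood test of edgeR (unadjusted p 0.00508). The exact permutation test gave p = 0.1, the smallest it can give. Technical replicates of Sprr1a differed up to 3.16-fold, in replicate 1 at 25 mM, where the first library read 20.7 and the second 6.57 CPM.

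Gal (ENSMUSG00000024907, chr19:3409915-3414544, minus strand) encodes the neuropeptide galanin, which sensory neurons make in quantity after nerve injury. At 5 mM glucose its replicates read 5.91, 2.72 and 3.72 CPM, and at 25 mM they read 7.84, 7.53 and 9.47 CPM. The groups did not overlap, but single libraries did, at 1.62 to 11.6 CPM at 5 mM and 3.28 to 12.6 CPM at 25 mM. Technical replicates of Gal differed 7.17-fold in replicate 1 at 5 mM and 3.83-fold in replicate 1 at 25 mM. The means were 4.12 ± 1.63 and 8.28 ± 1.05 CPM (SD, n = 3 each), and the log2 fold change was 1.01 (SE 0.33, 95% interval 0.25 to 1.76), with an FDR of 0.102 by the edgeR test and an exact permutation p of 0.1. The receptors of galanin, Galr1, Galr2 and Galr3, averaged at most 0.0702 CPM in either group and were too low to test.

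Gap43 (ENSMUSG00000047261, chr16:42248442-42340651, minus strand) encodes a growth cone protein that binds the inner face of the membrane in extending axons. It read 48.8, 24.0 and 23.7 CPM at 5 mM and 57.8, 51.3 and 37.7 CPM at 25 mM glucose. The first replicate at 5 mM lay within the range at 25 mM, and the other two lay below it. The log2 fold change was 0.61 (SE 0.32, 95% interval -0.12 to 1.33), with an FDR of 0.237 by the edgeR test. The interval includes no difference and also a fold change over 2.

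Among the regulators, Klf6 (ENSMUSG00000000078, chr13:5861482-5870394, plus strand), a zinc finger factor that favours axon growth, was lower at 25 mM. It read 453, 426 and 435 CPM at 5 mM and 173, 296 and 344 CPM at 25 mM glucose. The 5 mM replicates lay close together and the 25 mM replicates were spread below them, without overlap. Single libraries did overlap, at 326 to 527 CPM at 5 mM and 125 to 409 CPM at 25 mM. Technical replicates of Klf6 differed up to 3.26-fold, in replicate 2 at 25 mM, where the first library read 125 and the second 409 CPM. The means were 438 ± 13.7 and 271 ± 88.2 CPM (SD, n = 3 each). The log2 fold change was -0.69 (SE 0.25, 95% interval -1.27 to -0.11), with an FDR of 0.125 by the edgeR test and an exact permutation p of 0.1. Without the first library of replicate 2 at 25 mM, an alternative chosen after seeing the data, it was -0.49 (FDR 0.369 by the edgeR test). Atf3 (ENSMUSG00000026628, chr1:191170296-191218039, minus strand), the leucine zipper factor used as a mark of axotomised neurons, read 65.2, 87.4 and 90.1 CPM at 5 mM and 52.1, 56.7 and 69.5 CPM at 25 mM. The groups overlapped in 1 pair, the third replicate at 25 mM lying above the first at 5 mM. Its log2 fold change was -0.44 (SE 0.19, 95% interval -0.89 to 0.00), with an FDR of 0.175 by the edgeR test. Sox11 (ENSMUSG00000063632, chr12:27334264-27342574, minus strand), a factor of developing neurons that returns after injury, read 20.4, 9.62 and 11.7 CPM at 5 mM and 19.3, 20.5 and 13.1 CPM at 25 mM. The groups overlapped, and the log2 fold change was 0.34 (SE 0.33, 95% interval -0.41 to 1.09).

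Gadd45a (ENSMUSG00000036390, chr6:67035096-67037457, minus strand) encodes a small protein induced by DNA damage and by axotomy. It read 41.9, 36.1 and 35.8 CPM at 5 mM and 30.3, 37.7 and 47.5 CPM at 25 mM glucose. The 25 mM replicates fell on both sides of the 5 mM replicates. The means of 37.9 ± 3.47 and 38.5 ± 8.65 CPM (SD, n = 3 each) gave a log2 fold change of 0.02, with a 95% interval of -0.45 to 0.49, which lies within a 2-fold change either way. Gadd45a was the only gene of the set whose exons overlap those of another gene, by 317 bases of E230016M11Rik on the opposite strand, and the sources used here do not say if the counts are strand-specific. The summed counts of E230016M11Rik were 742.7, 461.9 and 484.2 at 5 mM and 1386.8, 1046.0 and 996.8 at 25 mM, higher at 25 mM without overlap, and how many of its reads entered the Gadd45a values was not tested. Ecel1 (ENSMUSG00000026247, chr1:87147655-87156521, minus strand), a membrane protein related to the endothelin-converting enzymes and known as a damage-induced neuronal gene, read 11.3, 22.8 and 31.8 CPM at 5 mM and 14, 14.2 and 26.6 CPM at 25 mM. The ranges lay almost on top of each other. Its log2 fold change was -0.26 (SE 0.41, 95% interval -1.19 to 0.67), an interval that includes a 2-fold lower level.

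**Figure D2:**
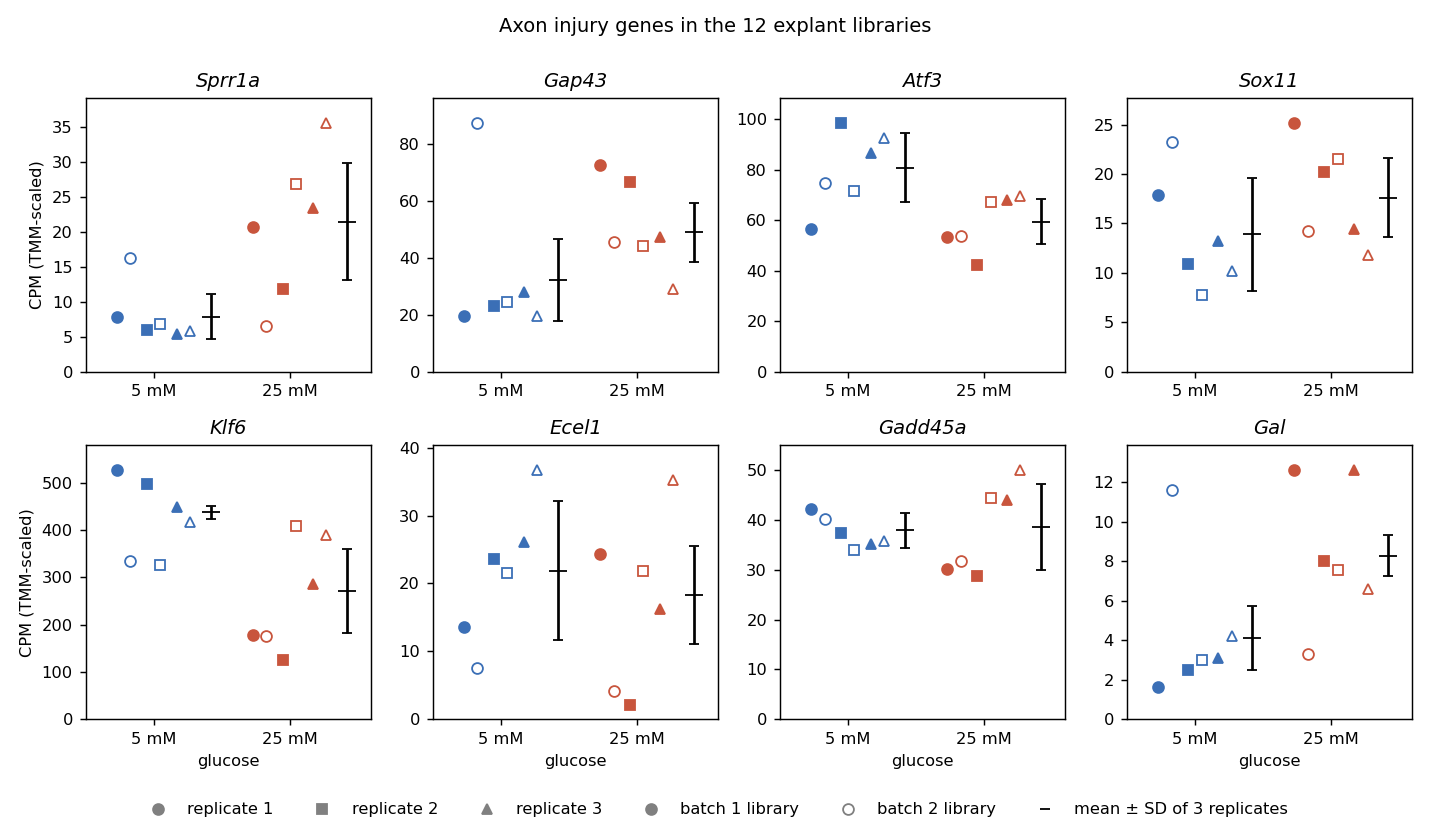
CPM of each gene in the 12 libraries, at 5 mM (blue) and 25 mM (red) glucose, with the marker shape for the replicate, filled markers for batch 1, open markers for batch 2, and black bars for the mean ± SD of 3 replicates. For Gap43, Gal and Sprr1a the open blue circle, the second library of replicate 1 at 5 mM, stands above all other 5 mM libraries.

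The second library of replicate 1 at 5 mM glucose stood apart from the other 5 mM libraries in 3 of the 8 genes. It read 87.5 CPM of Gap43 where the other 5 read 19.4 to 28 CPM, 11.6 CPM of Gal where they read 1.62 to 4.22 CPM, and 16.3 CPM of Sprr1a where they read 5.43 to 7.87 CPM. The first library of the same biological replicate read 19.5, 1.62 and 7.87 CPM. Its technical ratio of 7.17 for Gal and 4.48 for Gap43 exceeded the 95th percentile of 3.21 over 16421 genes in that replicate, while its ratio of 2.07 for Sprr1a did not. With the library left out, an alternative chosen after seeing the data, 3 of the 8 genes passed the FDR threshold of 0.05, beside 1731 genes (8.27%) called in all. The log2 fold changes were then 1.68 for Sprr1a (FDR 0.0317), 1.12 for Gap43 (FDR 0.0298) and 1.61 for Gal (FDR 0.0356), by the edgeR test. Without the whole of replicate 1 at 5 mM, 4 of the 8 passed (Atf3, Gal, Gap43 and Sprr1a), beside 5845 genes (26.6%). Ecel1 had the largest technical ratio, 10.4, between 2.11 and 21.9 CPM in the libraries of replicate 2 at 25 mM glucose.

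The batches were then taken 1 at a time. In batch 1 the log2 fold change was 1.51 for Sprr1a (FDR 0.0228), 2.19 for Gal (FDR 0.0111), 1.37 for Gap43 (FDR 0.0118) and -1.35 for Klf6 (FDR 0.0230), each past the threshold of 0.05 in the edgeR test of that batch, which called 3279 genes (17.3%). In batch 2, where 0 genes (0%) were called, the same values were 1.26 (FDR 0.451) for Sprr1a, -0.12 (FDR 0.933) for Gal, -0.17 (FDR 0.898) for Gap43 and -0.14 (FDR 0.863) for Klf6. The signs of Gap43 and Gal in batch 2 rested on the second library of replicate 1 at 5 mM, which belongs to that batch. Without it, an alternative chosen after seeing the data that left 2 libraries at 5 mM, batch 2 gave log2 fold changes of 0.85 for Gap43 (FDR 0.147), 0.70 for Gal (FDR 0.370), 1.89 for Sprr1a (FDR 0.168) and -0.18 for Klf6 (FDR 0.795) by the edgeR test, and called 3 genes (0.0154%) and 0 of the 8. The difference between batches itself was tested over all 12 libraries as an interaction in edgeR, with the biological replicate as a block, over 18725 genes. It did not pass the FDR threshold for any of the 8 (0 genes in all, 0%). By the same test 3056 genes (16.3%) had an unadjusted p under 0.05, Gal (p 0.0282) and Klf6 (p 0.0302) among them. The batch 2 minus batch 1 difference was -2.15 (SE 0.80, FDR 0.260) for Gal, 1.16 (SE 0.44, FDR 0.264) for Klf6 and -1.20 (SE 0.63, FDR 0.376) for Gap43. Atf3 was lower at 25 mM in both, with log2 fold changes of -0.59 (batch 1, FDR 0.164) and -0.32 (batch 2, FDR 0.51).

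**Figure D3:**
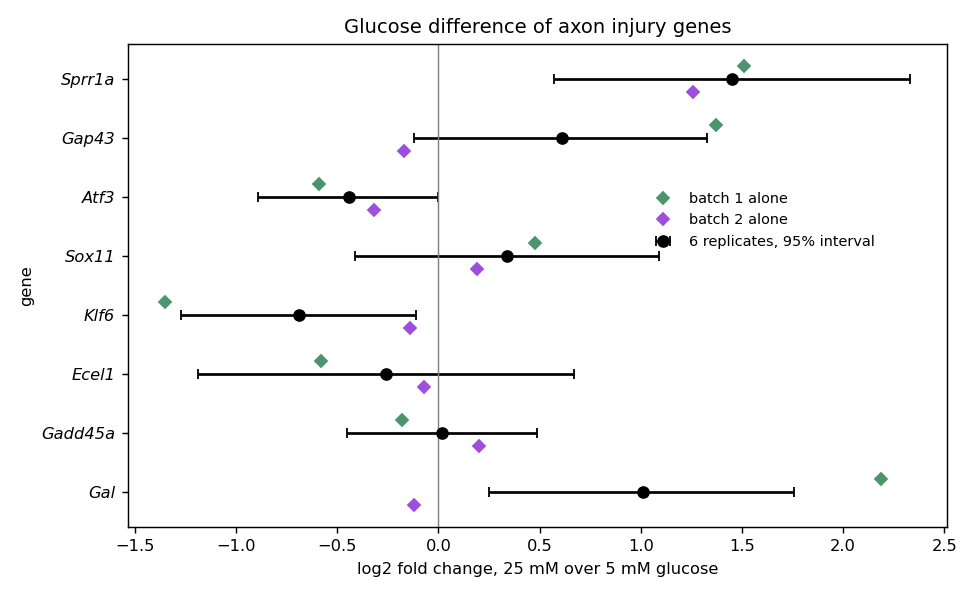
Log2 fold change of each gene at 25 mM over 5 mM glucose, as black points with 95% intervals over the 6 replicates and as green and purple diamonds for batch 1 and batch 2 alone. Sprr1a lies between 1.26 and 1.51 in all 3 fits, whereas Gal ranges from -0.12 to 2.19. The batch 2 values include the library that stands apart.

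Markers of ganglion cells were examined beside these genes, since in whole tissue fewer cells of a type and less RNA per cell cannot be told apart. All 12 ganglion cell markers were detected in every biological replicate, and 1 was at 0 in 1 library. Their summed level was 528, 324 and 352 CPM at 5 mM and 530.3, 491 and 367 CPM at 25 mM glucose, and over single libraries it ran from 298 to 762 CPM at 5 mM and from 296 to 723 CPM at 25 mM. None of the 12 passed the FDR threshold, and their median log2 fold change was 0.25. Isl1, a factor of ganglion, amacrine and bipolar cells, differed by 0.28 (FDR 0.379 by the edgeR test). Slc17a6, the vesicular glutamate transporter of ganglion cells, varied widely between libraries. It read 158 CPM in the second library of replicate 1 at 5 mM, where the other 5 read 1.30 to 6.14 CPM, and 55.7 to 112 CPM in 5 of the 6 libraries at 25 mM, the exception being the second library of replicate 3 at 5.44 CPM. Rbpms, a ganglion cell marker that vascular smooth muscle also makes, ran the other way, with a log2 fold change of -1.68 (FDR 0.0712 by the edgeR test).

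The 6 libraries highest in Slc17a6 were also the 6 highest in Gap43. For Gal, Sprr1a and Sox11, 5 of the 6 highest libraries were among them, for Gadd45a 3 of 6, for Ecel1 2 of 6, and for Atf3 and Klf6 1 of 6. Of these 6 libraries 5 were 25 mM libraries. Other ganglion cell markers differed in how they followed this ranking. Stmn2 read 33.2 to 101 CPM in the 6 libraries highest in Slc17a6 and 11.9 to 27.5 CPM in the others. Pou4f1 read 4.21 to 17.8 CPM and 1.08 to 3.53 CPM. The amacrine gene Calb2 read 13.7 to 42.6 CPM and 6.74 to 8.99 CPM. Rbpms ran the other way, at 3.72 to 14.2 CPM in these 6 libraries and 18.6 to 54.5 CPM in the others. Thy1 overlapped, at 17.6 to 43.2 CPM and 9.98 to 42.2 CPM. Nefl overlapped too, at 84.1 to 235 CPM and 79.1 to 181 CPM. The match therefore depended on the marker taken. Among the 25 mM libraries, the second library of replicate 3 was lowest in Gap43 (29.0 CPM) and highest in Sprr1a (35.7 CPM). The part that ganglion cell content had in the differences of the set was not tested.

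**Figure D4:**
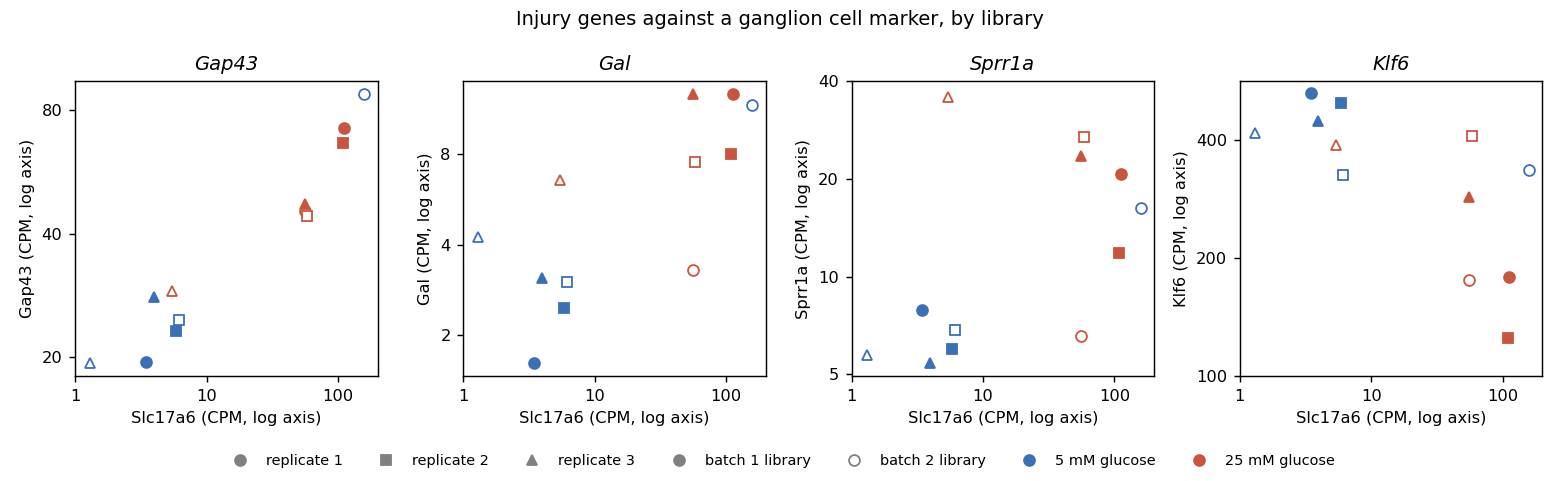
CPM of Gap43, Gal, Sprr1a and Klf6 against CPM of the ganglion cell gene Slc17a6 in the 12 libraries, both axes logarithmic, with the markers of the plot of CPM by library. Gap43 is high in the 6 libraries with 55.7 CPM or more of Slc17a6, 5 of them at 25 mM and 1 at 5 mM, and only 1 of these 6 is among the 6 highest in Klf6.

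Over the 12 libraries, which include technical pairs and share the difference in glucose, several of the 8 genes varied together on the log2 CPM scale. Gap43 and Gal had a Pearson r of 0.82, Sprr1a and Gal 0.77, and Gap43 and Sox11 0.76. On the other side Atf3 and Klf6 had an r of 0.78, and Klf6 and Ecel1 and likewise Atf3 and Ecel1 an r of 0.70. Gap43 and Klf6 ran against each other, with an r of -0.70. Gadd45a had an r of 0.67 with Klf6, 0.47 with Ecel1 and 0.37 with Atf3. Of the genes on the first side it varied only with Sprr1a (0.51), against 0.05 with Gal, -0.08 with Sox11 and -0.27 with Gap43. The other pairs lay between -0.56 and 0.56. Among 16411 genes with a mean of at least 1 CPM, the genes most like Atf3 were Ncaph2 (r 0.965), Atp5b (r 0.961) and Bahd1 (r 0.959), and those most like Sprr1a were 4930402H24Rik (r 0.916), Cd24a (r 0.898) and 9330188P03Rik (r 0.894).

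Klf6, Atf3 and Gadd45a are also made outside neurons, and other cell types differed between the groups. The summed level of 8 vascular markers was 1094, 1781 and 1854 CPM at 5 mM glucose. At 25 mM it was 594, 914 and 1003 CPM, without overlap. Klf6 did not overlap either, nor did 31.8% of all genes tested. The median log2 fold change of the 8 was -1.73. Of these 8, Kdr (219.9 and 215 CPM, log2 fold change -0.03) and Rgs5 (273 and 292 CPM, 0.09) hardly differed. The replicate lowest in Klf6 in the 25 mM group, replicate 1 at 173 CPM, was also lowest in the vascular markers, whereas in the 5 mM group the replicate highest in Klf6, replicate 1 at 453 CPM, was the lowest in them. The summed level of 7 microglia markers was 82.9, 180 and 153 CPM at 5 mM and 47.5, 61.5 and 100 CPM at 25 mM, which overlapped. The 9 amacrine and horizontal cell markers summed to 316, 266 and 253 CPM at 5 mM. At 25 mM they summed to 234, 213 and 137 CPM, without overlap. Gad1 (139 and 73.2 CPM) was the largest part of these sums. The median log2 fold change of the 9 was -0.01, and 4 of them were above 0. The 7 Mueller glia markers summed to 1911, 2051 and 2133 CPM at 5 mM. At 25 mM these summed to 1559, 1777 and 2058 CPM, with overlap. Markers of reactive glia summed to between 3101 and 4363 CPM at 5 mM and between 1595 and 2768 CPM at 25 mM. By their means, Vim (1892 and 663 CPM) and Lcn2 (995 and 546 CPM) were the largest parts of these sums. The median log2 fold change of these 7 markers was -0.34, and not all ran that way. The 1 called of the 7 in this list, Edn2 (endothelin-2), was higher at 25 mM with a log2 fold change of 1.99 (FDR 0.0261 by the edgeR test). Which cells made Edn2 was not measured, so its difference need not lie in glia. By the same test Fgf2 differed by 0.98 (FDR 0.0732) and Vim by -1.51 (FDR 0.0555). Rod markers were higher at 25 mM, with 4 of 7 called, Pde6b at 1.65 (FDR 0.0217), Nrl at 1.33 (FDR 0.0261), Nr2e3 at 0.99 (FDR 0.0305) and Pde6a at 1.06 (FDR 0.0325). In the lists of other cell types 0 genes passed. The smallest p-values there belonged to Pdgfrb (-2.46, FDR 0.0594), Pecam1 (-1.94, FDR 0.0732) and Flt1 (-0.85, FDR 0.0838) of vessels, Tmem119 (-1.54, FDR 0.096), C1qa (-1.22, FDR 0.115) and Csf1r (-1.19, FDR 0.131) of microglia, Gad1 (-0.92, FDR 0.0522), Gad2 (-0.96, FDR 0.0562) and Chat (1.94, FDR 0.133) of amacrine cells, and Aqp4 (0.76, FDR 0.102), Apoe (-1.32, FDR 0.105) and Dkk3 (-0.42, FDR 0.133) of Mueller glia. The part of these cells in the values of Klf6, Atf3 and Gadd45a was not tested.

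Transcripts were available for all 8 genes, and 6 of them had more than 1. Atf3 has a pair of coding transcripts of similar length that begin far apart. Atf3-203 (ENSMUST00000195117, 1906 bases) starts at position 191218039 of chromosome 1, and Atf3-201 (ENSMUST00000027941, 1984 bases) starts 34699 bases downstream, at 191183340, beside the promoter printed above. The upstream start took the larger share of the estimated counts of Atf3, 75% ± 13.7 at 5 mM and 80.1% ± 12 at 25 mM (SD, n = 3 each). Atf3-201 took 24.1% ± 13.8 and 19.7% ± 11.7, and between single libraries its share ran from 2.94% to 44.8%. The shares overlapped between the glucose groups. The depth of the reads that distinguish the 2 starts is unknown, because the files hold estimates that divide shared reads.

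Gap43 was divided between its coding transcript Gap43-201, with 64.6% ± 12.8 at 5 mM and 56.4% ± 3.20 at 25 mM, and the shorter Gap43-202, annotated as a processed transcript without a coding sequence, with 35.4% ± 12.8 and 43.6% ± 3.20 (SD, n = 3 each). The noncoding share at 5 mM was 49.4% in replicate 1, the replicate high in Gap43, against 24.4% and 32.4% in the others. Of Klf6, 92.0% ± 2.10 at 5 mM and 94.0% ± 2.42 at 25 mM was the coding Klf6-201, and a retained-intron transcript took 6.80% ± 1.37 and 5.34% ± 2.40. Gadd45a-201 took 88.6% ± 2.52 and 84.8% ± 4.53 of Gadd45a. Gal was divided between Gal-202, with 75.8% ± 11.1 and 75.4% ± 16.7, and Gal-201. For Ecel1, whose transcripts include one of 191 bases, the deposited gene value ran from 0.503 to 1.754 times the sum of its transcripts in single libraries, against 0.835 to 1.164 times or closer for the other genes of the set.

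**Figure D5:**
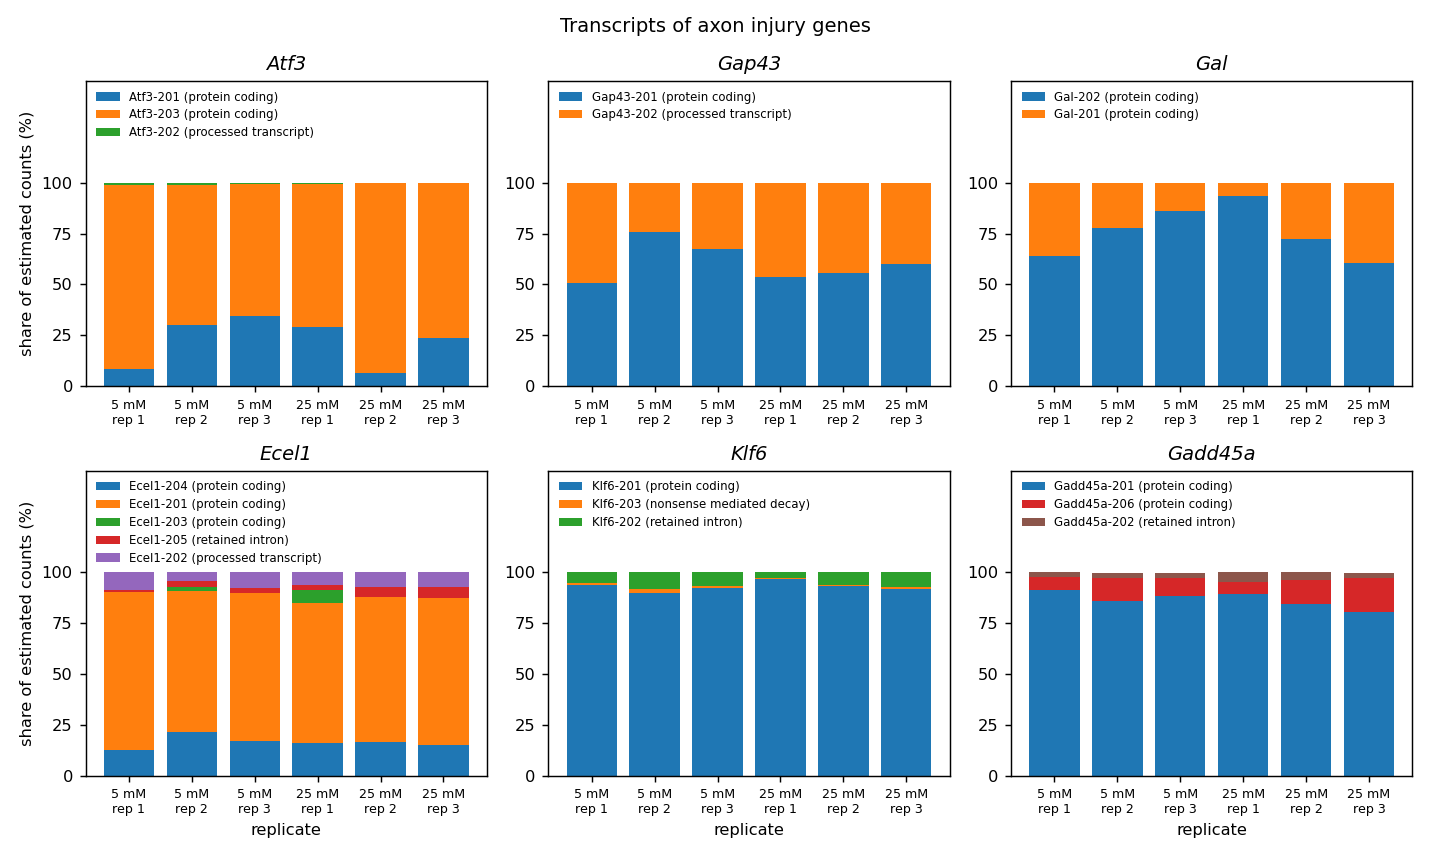
Share of the estimated counts of 6 genes taken by each transcript (stacked bars, percent) in the 3 replicates at 5 mM and the 3 at 25 mM glucose; transcripts that stayed under 1% in every replicate are not drawn. Atf3-203 holds the larger part of Atf3 in all 6 replicates.

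The rest of the injury program was described with lists of other genes, which like the set itself were written with earlier results of these data known. Of 10 injury kinases and their scaffolds, 0 passed the FDR threshold in either direction, and their median log2 fold change was 0.10. DLK (Map3k12) averaged 35.1 CPM at 5 mM and 44.0 CPM at 25 mM glucose, a log2 fold change of 0.33 (FDR 0.382 by the edgeR test), and JNK1 (Mapk8) differed by 0.38 (FDR 0.259). The scaffold Mapk8ip1 differed by -0.54 (FDR 0.243).

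Of 18 injury transcription factors beside the set, 0 passed in either direction, and their median log2 fold change was -0.30. The smallest p-values were those of Smad1, which transmits BMP signals and favours sensory axon growth, at -1.12 (FDR 0.0537), Myc at -1.25 (FDR 0.0963) and Creb1, a factor activated by cyclic AMP, which differed the other way at 0.51 (FDR 0.125), all by the edgeR test. Of 12 growth cone and cytoskeleton genes, 0 passed, with a median of -0.33. Basp1, a membrane protein related in function to Gap43, averaged 122 CPM at 5 mM and 68.0 CPM at 25 mM, a log2 fold change of -0.84 (FDR 0.0516), opposite in sign to Gap43. Stmn4, a microtubule destabiliser, differed by -0.71 (FDR 0.0644), and Dpysl3, which shapes the growth cone, by 0.75 (FDR 0.0686).

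Of 19 secreted and surface genes of nerve injury that could be tested out of 23, 0 passed, with a median of -0.29. Lgals1 (galectin-1) differed by -1.98 (FDR 0.0581), the LIF receptor Lifr by 0.84 (FDR 0.0609) and the matrix enzyme Lox by -1.96 (FDR 0.0685), by the edgeR test. Of 7 genes that restrain axon growth and could be tested out of 8, 0 passed, with a median of -0.03. The nearest to the threshold were Socs3, an inhibitor of cytokine signalling, at -0.52 (FDR 0.331), Klf9 at 0.31 (FDR 0.350) and Tsc2 at -0.30 (FDR 0.382). Of 13 stress and death genes of injured neurons, 0 passed, and their median of -0.52 was the lowest of these lists. Bcl2l11 (Bim), a cell death gene downstream of JNK, differed by -0.82 (FDR 0.0653), Trp53 (p53) by -1.08 (FDR 0.0923) and Chac1, which degrades glutathione, by -1.30 (FDR 0.0974).

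Of 20 close relatives of the 8 genes, 12 could be tested and 0 passed, with a median of -0.23. Gadd45b averaged 74.6 CPM at 5 mM and 71.2 CPM at 25 mM, a log2 fold change of -0.07 beside 0.02 for Gadd45a, and Gadd45g averaged 12.4 and 5.66 CPM, a log2 fold change of -1.13 (FDR 0.194). Ece1, the endothelin-converting enzyme related to Ecel1, averaged 154 CPM at 5 mM and 39.8 CPM at 25 mM, a log2 fold change of -1.96 (FDR 0.0681 by the edgeR test), where that of Ecel1 was -0.26. Klf7, a relative of Klf6, differed by -0.39 (FDR 0.126), the same sign as Klf6. Sox4, of the same subfamily as Sox11, differed by -0.57 (FDR 0.134), opposite in sign to Sox11.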

How the data were processed

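The authors deposited an estimated count (an expected count, which need not be whole) per gene and per transcript for each library, without normalization between libraries. Libraries were made from total RNA with a stranded low-input kit and sequenced as read pairs. The submitters' notes name GRCm38. The counting tool and annotation are not given in the sources used here. Among gene values above 0, 99.4% lie more than 0.001 from a whole number, and they differ from the sum of their transcripts although library totals match, so they may have been rescaled for transcript length. Symbols and positions came from GENCODE M21, which named 48714 of 53707 genes (90.7%).

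Technical replicates were summed and rounded. Sums were filtered with filterByExpr, scaled by TMM and tested by the quasi-likelihood method of edgeR 4.0.16 (as in version 3, R 4.3.3) without blocking on replicate number, and p-values were adjusted by Benjamini-Hochberg over 21061 genes. CPM use TMM factors, log2 CPM a prior count of 2, and TPM come from the transcript table. Alternatives used limma 3.58.1 and DESeq2 1.42.0. Python 3.11.15, pandas 2.3.3, scipy 1.17.1 and matplotlib 3.10.9 served for summaries and figures. The fit was first tested on simulated data. Same-numbered replicates correlated at -0.014, -0.449 and 0.285 in their deviations, so the numbers were not taken as pairs.

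A library at 5 mM glucose held 17998905 to 36692484 estimated counts and one at 25 mM 14815285 to 23129541. They limit counting error only, and the spread between replicates was larger. The genes and lists were chosen with earlier results of these data known. Named genes were the 8 genes, in each list the 3 with the smallest p-values and all called, and the 3 most correlated with Atf3 and with Sprr1a. The galanin receptors and relatives of Sprr1a, Gadd45b, Gadd45g, Thy1, Nefl, Stmn2, Pou4f1, Calb2 and Lcn2 were added after their values were seen.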

Additional observations from a re-analysis of the deposited data

Results flagged for a closer look

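In 16 groups of 6 libraries (8 genes at 2 glucose concentrations), 3 held a library far from the rest by Dixon's test at the 95% level. With independent values, chance flags about 1 group in 20. The values here are not independent, because each group holds technical pairs and several of the genes vary together. All 3 flagged values came from the second library of replicate 1 at 5 mM glucose. It read 87.5 CPM of Gap43, with the next highest library at 28 CPM, 11.6 CPM of Gal, with the next at 4.22 CPM, and 16.3 CPM of Sprr1a, with the next at 7.87 CPM. The same library read 158 CPM of Slc17a6, 101 CPM of Stmn2, 21.7 CPM of Vip and 27.2 CPM of Adcyap1, where the first library of that replicate read 3.46, 16.0, 0.49 and 1.59 CPM. Pou4f1 read 2.94 CPM in the first and 17.8 CPM in the second library, and Thy1 9.98 and 42.7 CPM. Not every neuronal gene followed: Nefl read 181 CPM in the first and 175 CPM in the second library. Rbpms, which vascular smooth muscle also makes, read 23.6 and 14.2 CPM. The amacrine gene Calb2 read 7.17 and 38.2 CPM, the 9 amacrine and horizontal markers summed to 233 and 420.1 CPM, and the endothelial gene Pecam1 read 383 and 101 CPM. The cause was not tested.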

How the results depend on the processing

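None of the 8 genes (0) had an FDR under 0.05, and 0 also with RLE size factors, library totals, limma-voom, the newer quasi-likelihood method, a filter of 1 CPM, equal depths, transcript sums, batch 2 alone and the first library of replicate 2 at 25 mM dropped (added after seeing the data). The count was 1 with the 12 libraries and a batch term (Sprr1a), 1 without a filter (Sprr1a), 2 with DESeq2 (Gal and Sprr1a), 4 in batch 1 alone and 3 with the second library of replicate 1 at 5 mM dropped (added after seeing the data). It ran from 0 to 4 when a replicate was left out, 4 without 5 mM replicate 1. With a fold change over 2 required beside an FDR under 0.01, DESeq2 called 1 (Sprr1a) and every other setting 0. With the replicate number as a block, 0 of the 8 and 990 genes in all were called, against 417 without it. The count over all genes ran from 0 to 5845 when a replicate was left out, was 2918 with the 12 libraries, 3279 in batch 1, 0 in batch 2, 3489 with DESeq2, 1979 without a filter, 1731 without the second library of replicate 1 at 5 mM and 0 without the first library of replicate 2 at 25 mM. Across 22 alternatives the log2 fold change lay between 1.11 and 1.89 for Sprr1a, between -0.59 and -0.32 for Atf3, between 0.12 and 0.82 for Sox11 and between -1.35 and -0.14 for Klf6. The sign turned for Gap43 (-0.172) and Gal (-0.124) in batch 2, and not in batch 2 without the second library of 5 mM replicate 1 (added after seeing the data), where they were 0.849 and 0.702. It turned for Ecel1 without 5 mM replicate 3 (0.0925), within a range of -0.639 to 0.0925 when a replicate was left out. For Gadd45a it turned in batch 1 (-0.183), with limma-voom (-0.00239), with equal depths (-0.00039), with transcript sums (-0.0541) and without a replicate, where it ran from -0.164 to 0.18. The cause was not tested. The lowest count of the set in a library was 27.7 (Ecel1), followed by 53.2 (Gal), so counting error weighs most on these.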
